A study of Mus musculus with 12 samples.

Results

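C1qa, C1qb, C1qc, Tyrobp, Trem2, Csf1r, Cx3cr1, Ctss and Laptm5 are 9 genes of the complement C1q complex and of microglia, the resident macrophages of the brain. They were chosen by name, and all 9 had a row among the 7667 genes of the deposited table. The table comes from a study of cerebellar RNA in fxSCA7 92Q mice and in wild-type littermates. The 92Q mice model spinocerebellar ataxia type 7 and carry an expanded ataxin-7 gene with 92 CAG repeats. The 4 conditions were: 92Q at 29 weeks, wild type at 29 weeks, 92Q at 12 weeks and wild type at 12 weeks. Each condition had 3 libraries, and each library was made from the pooled cerebella of 3 mice, so a condition rests on 9 animals. The sources used here give neither the promoter that drives the expanded gene nor the sex of the pooled animals, and Atxn7 was not analysed here.

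C1q is the recognition part of the classical complement pathway. It is assembled from the A, B and C chains encoded by C1qa, C1qb and C1qc, and in the brain these chains are made mainly by microglia. C1q can tag synapses and debris for removal by phagocytes. TREM2 is a lipid-sensing receptor of microglia that signals through the adaptor TYROBP, CSF1R is the receptor for the growth factors on which microglia depend, and CX3CR1 binds a chemokine of neurons. Cathepsin S, the product of Ctss, is a lysosomal protease that processes antigen. LAPTM5 is a lysosomal membrane protein of immune cells, microglia among them.

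The deposited tables hold 1 whole-number score per gene and condition, so the spread between libraries is not known, no test was possible and no p-value is given. The words higher and lower below describe these 4 values alone. The 4 condition columns had the same median score of 22, and the read depth behind the scores is unknown. A ratio is given as log2 of (score + 1) in one condition over (score + 1) in the other, with the range that rounding each score by 0.5 allows, and a gene is counted as differing at 1.5-fold on that scale. In a bulk sample more cells of a type and more RNA per cell cannot be told apart. The tissue label fits its markers: Pcp2, a Purkinje cell gene, scored 871 to 1661 and Gabra6, a granule neuron receptor subunit, 337 to 417 in the 4 conditions. By its label number, 1 of the 3 libraries of 92Q at 29 weeks stands apart from the other 5 libraries of that age, and no value without it could be had.

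Every gene of the table reached a score of 10 in at least 1 condition, which decides how the 9 genes can be read. C1qa, C1qb, C1qc, Tyrobp, Csf1r and Ctss, 6 genes, were at 10 or more in all 4 conditions. For Trem2 and Cx3cr1 the 29-week 92Q score was the only one at 10 or more, so their higher score there was a condition of being listed. Their values are given below, but they enter no count. Laptm5 reached 10 in both 29-week conditions and in neither 12-week condition, so its higher scores at 29 than at 12 weeks go with its being listed, and it enters the counts of 1 added comparison of the 29-week genotypes only.

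The 3 C1q chain genes stood highest in 92Q at 29 weeks, with scores of 61 to 65, and were much lower and closer together in the other 3 conditions. C1qa scored 63 in 92Q and 26 in wild type at 29 weeks, and 23 in 92Q and 25 in wild type at 12 weeks. C1qb scored 65 in 92Q and 34 in wild type at 29 weeks, and 28 in each genotype at 12 weeks. C1qc scored 61 in 92Q and 28 in wild type at 29 weeks, and 25 in each genotype at 12 weeks. In all 3 genes the 29-week 92Q score stood far above the other conditions, which lay between 23 and 34. The summed score of the 3 chains was 189 in 92Q and 88 in wild type at 29 weeks, and 76 in 92Q and 78 in wild type at 12 weeks.

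On the log2 scale the 29-week ratio of 92Q to wild type was 1.25 for C1qa (rounding range 1.21 to 1.28). For C1qc it was 1.10 (1.06 to 1.13), and for C1qb it was 0.92 (0.88 to 0.95). The A chain gene thus had the highest ratio of the 3 and the B chain gene the lowest, with rounding ranges that did not overlap. The order came with a difference in wild type, where the score of C1qb was 34 at 29 weeks against 28 at 12 weeks, while C1qa was 26 against 25. At 12 weeks the ratio was 0.00 for C1qb and C1qc and -0.12 for C1qa (-0.17 to -0.06).

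C1qa, C1qc and C1qb lie side by side within 18.68 kb of chromosome 4, all on the minus strand (mm10, gene spans of GENCODE M21), and GENCODE places no other gene between them. C1qa spans 136895917 to 136898803, C1qc 136889804 to 136893065 and C1qb 136880129 to 136886187. Within 500 kb of this cluster 5 other genes had a row, and none of them followed the C1q genes. Epha8, an ephrin receptor gene, scored 17 in 92Q and 19 in wild type at 29 weeks. Ephb2, another ephrin receptor gene, scored 14 and 13, and the demethylase gene Kdm1a 19 and 18 in the same order. The small GTPase gene Cdc42 scored 139 in 92Q and 128 in wild type at 29 weeks, and Luzp1 34 in 92Q and 37 in wild type. The log2 ratios of these neighbours at 29 weeks ran from -0.15 to 0.12.

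Promoter sequence is shown for C1qb, C1qc and Ctss, which were at 10 or more in every condition and higher at 29 weeks in 92Q. RefSeq's table of start sites (GRCm38.p6, the assembly of mm10) gave no entry for C1qa and Tyrobp. Entries on the chromosome of Csf1r were not used, neither for Csf1r nor in the shares over all entries below. This leaves entries for 6 of the 9 genes. Capitals mark GAGGAA, the core recognised by PU.1, an ETS factor of the myeloid lineage, its longer form GAGGAAGT, and an element of interferon regulatory factors, GAAA, any 2 bases and GAAA again, on either strand. The sequences run 5′ to 3′ on the strand of the gene. C1qb is chr4:136886201-136886450 (minus), C1qc is chr4:136893066-136893164 (minus, only the bases outside the GENCODE gene) and Ctss is chr3:95526536-95526785 (plus).
C1qb: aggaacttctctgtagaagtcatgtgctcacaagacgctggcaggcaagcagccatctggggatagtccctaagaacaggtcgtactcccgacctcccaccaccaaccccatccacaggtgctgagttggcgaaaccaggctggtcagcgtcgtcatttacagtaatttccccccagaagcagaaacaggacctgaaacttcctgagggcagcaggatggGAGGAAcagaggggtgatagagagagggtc
C1qc: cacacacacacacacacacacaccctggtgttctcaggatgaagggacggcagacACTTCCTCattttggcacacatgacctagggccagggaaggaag
Ctss: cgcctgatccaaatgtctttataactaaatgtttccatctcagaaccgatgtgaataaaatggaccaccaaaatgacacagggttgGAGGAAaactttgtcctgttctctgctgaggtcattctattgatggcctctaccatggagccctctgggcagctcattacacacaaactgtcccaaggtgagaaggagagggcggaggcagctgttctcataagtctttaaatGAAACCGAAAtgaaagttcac
In the 250 bases before the RefSeq start, GAGGAA was present for 5 of the 6 genes, C1qb, C1qc, Ctss, Laptm5 and Trem2, but not for Cx3cr1. For C1qc and Laptm5 this window lies partly, and for Cx3cr1 wholly, inside the GENCODE gene. The Laptm5 match lies in the part inside the gene. Of 32851 promoter entries 23.3% held it on one strand or the other. The longer GAGGAAGT, which contains GAGGAA, was found only for C1qc, on the strand opposite to the gene, and in 2.44% of all entries. The interferon regulatory element was found only for Ctss, and in 2.98% of all entries. These matches describe letters in a window and say nothing of binding. Spi1, the gene of PU.1, and Irf8 were not analysed here.

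**Figure D1:**
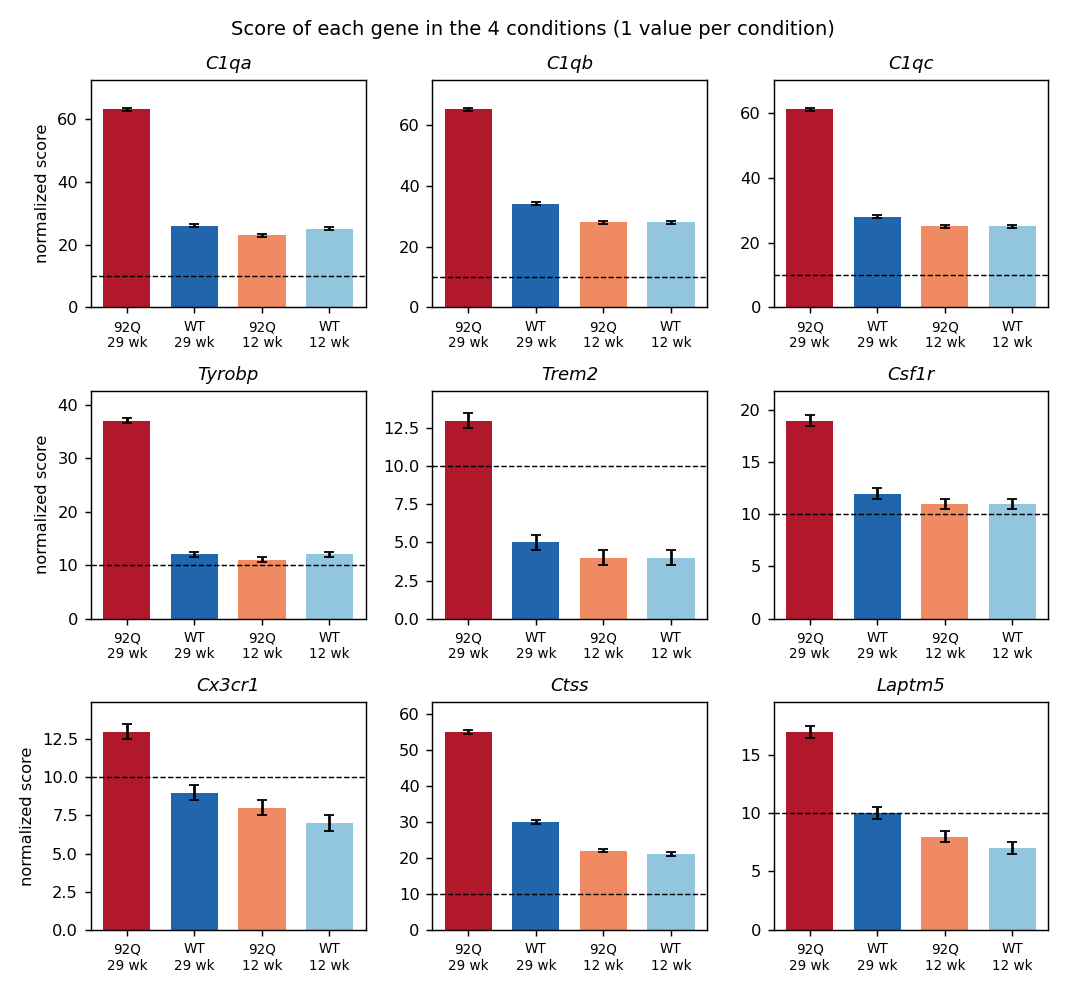
Normalized score (y axis, no unit) of each of the 9 genes in 92Q and wild type at 29 weeks and in 92Q and wild type at 12 weeks. Bars are the authors' single value per condition, whiskers the rounding of 0.5, and the dashed line a score of 10. The 29-week 92Q bar is the tallest in every panel, for example 63 against 26 in wild type for C1qa.

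Among the receptors and their adaptor, Tyrobp had the highest ratio of the genes at 10 or more in every condition. It scored 37 in 92Q and 12 in wild type at 29 weeks, and 11 in 92Q and 12 in wild type at 12 weeks. The 29-week 92Q score stood far above the others, which were within 1 unit of each other. Its log2 ratio at 29 weeks was 1.55 (1.47 to 1.62), the highest of 7066 genes at 10 or more in every condition.

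Trem2, whose product pairs with TYROBP, scored 13 in 92Q and 5 in wild type at 29 weeks, and 4 in each genotype at 12 weeks. The log2 ratio of Trem2 at 29 weeks was 1.22 (1.05 to 1.40), wide because the wild-type score is small. Its direction was fixed by the row filter, so the value describes its size only.

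Csf1r scored 19 in 92Q and 12 in wild type at 29 weeks, and 11 in each genotype at 12 weeks. Here too the 29-week 92Q score stood apart, but by less than for Tyrobp or the C1q chains. Its log2 ratio at 29 weeks was 0.62, and the rounding range of 0.53 to 0.71 crossed the 1.5-fold line. With a pseudocount of 5 in place of 1 the ratio was 0.50, under 1.5-fold. An opposite-strand gene, Hmgxb3, overlaps Csf1r and scored 12 in 92Q and 11 in wild type at 29 weeks. Whether the counting used strand is unknown.

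Cx3cr1 scored 13 in 92Q and 9 in wild type at 29 weeks, and 8 in 92Q and 7 in wild type at 12 weeks. It had the lowest ratio of the 9 genes at 29 weeks, 0.49 (0.36 to 0.61), with its direction fixed by the row filter. GENCODE's span of Cx3cr1 overlaps several other genes, so its score is uncertain where their reads were shared. Of these, Wdr48 scored 24 in each genotype at 29 weeks, and Gorasp1 scored 15 in 92Q and 14 in wild type.

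Of the lysosomal genes Ctss and Laptm5, Ctss was higher with age in wild type as well. Ctss scored 55 in 92Q and 30 in wild type at 29 weeks, and 22 in 92Q and 21 in wild type at 12 weeks. Its log2 ratio of 92Q to wild type was 0.85 at 29 weeks (0.82 to 0.89) and 0.06 at 12 weeks (0.00 to 0.13). Laptm5 scored 17 in 92Q and 10 in wild type at 29 weeks, and 8 in 92Q and 7 in wild type at 12 weeks. For Laptm5 the 29-week ratio was 0.71 (0.61 to 0.82). Both genes had their lowest scores at 12 weeks, an intermediate one in 29-week wild type and the highest in 29-week 92Q. For Laptm5 the lower scores at 12 weeks go with its being listed.

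The 6 genes at 10 or more in every condition were all at least 1.5-fold higher in 92Q at 29 weeks, with a median log2 ratio of 1.01 and a range of 0.62 to 1.55. Over all 7066 genes at 10 or more in every condition the median was 0.00, and 16 genes, or 0.226%, were at least 1.5-fold higher. These 6 therefore make up 6 of the 16. With a pseudocount of 5 the numbers were 5 of 14. Over the 7 genes at 10 or more in both 29-week conditions, which adds Laptm5, 7 of 7 were at 1.5-fold against a background of 0.263%. At 12 weeks the same 6 genes had a median ratio of 0.00 and a range of -0.12 to 0.06, and none was at 1.5-fold, where the background was 0.0283%. The genotype ratio at 29 weeks minus that at 12 weeks had a median of 1.01 over the 6 genes, against 0.00 over all 7066, and passed 1.5-fold in 6 of 6 against a background of 0.41%. C1qa was the 1 gene of the 6 that was lower in 92Q at 12 weeks and higher at 29 weeks, each beyond rounding, as were 7.53% of the 7066 genes. The microglial genes were chosen with earlier results of these data known, so these counts describe them and are not independent support.

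**Figure D2:**
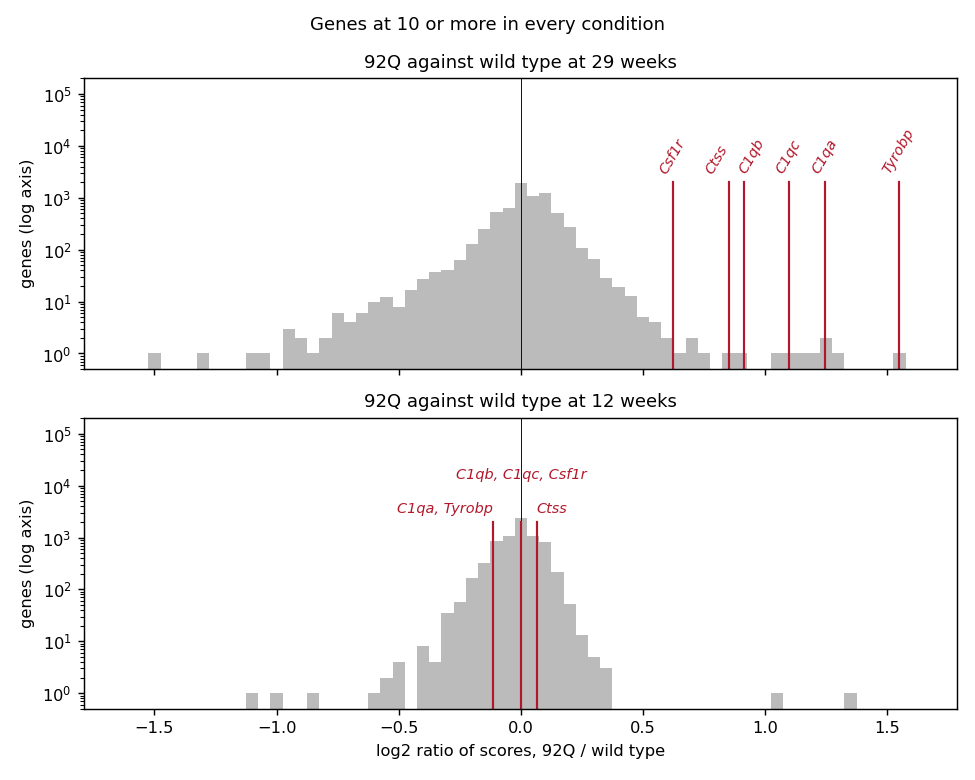
Histograms of the log2 ratio of scores, 92Q over wild type (x axis), for the 7066 genes at 10 or more in every condition at 29 weeks (top) and 12 weeks (bottom), with the number of genes on a log y axis. Red lines mark the 6 genes, which lie between 0.62 and 1.55 at 29 weeks and between -0.12 and 0.06 at 12 weeks.

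Within 92Q all 6 genes were higher at 29 than at 12 weeks by at least 1.5-fold (median log2 ratio 1.27, background 0.439%). The ratios were 1.66 for Tyrobp, 1.42 for C1qa, 1.28 for Ctss, 1.25 for C1qc, 1.19 for C1qb and 0.74 for Csf1r. Of the genes whose direction with age the filter fixed, Trem2 had 1.49, Laptm5 1.0 and Cx3cr1 0.64. The genotype and age comparisons share the 29-week 92Q column and are not separate results.

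Wild-type cerebellum showed smaller and less even differences with age. The median over the 6 genes was 0.14 against 0.00 over all genes, and none reached 1.5-fold (background 0.0849%). The 29-week score was above the 12-week score beyond rounding in 3 of the 6, against 16.2% of all genes at 10 or more in every condition. Ctss had 0.49 (0.44 to 0.55), and 11 of the 7066 genes, Ctss among them, had a ratio that high or higher. C1qb had 0.27 (0.23 to 0.32) and C1qc 0.16 (0.11 to 0.21). C1qa had 0.05 and Csf1r 0.12, both with ranges that touched 0, and Tyrobp was at 12 in both ages. Tyrobp, with the highest genotype ratio, was thus level with age in wild type, while Ctss, with a lower genotype ratio, was the highest of the 6 there.

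The 6 genes differed from each other at 29 weeks by more than rounding. The rounding ranges of the genotype ratio were apart in 14 of 15 pairs, the exception being C1qb and Ctss. The order of the ratio was Tyrobp, C1qa, C1qc, C1qb, Ctss and Csf1r. The spread between libraries, which would say whether these steps are stable, is not known.

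**Figure D3:**
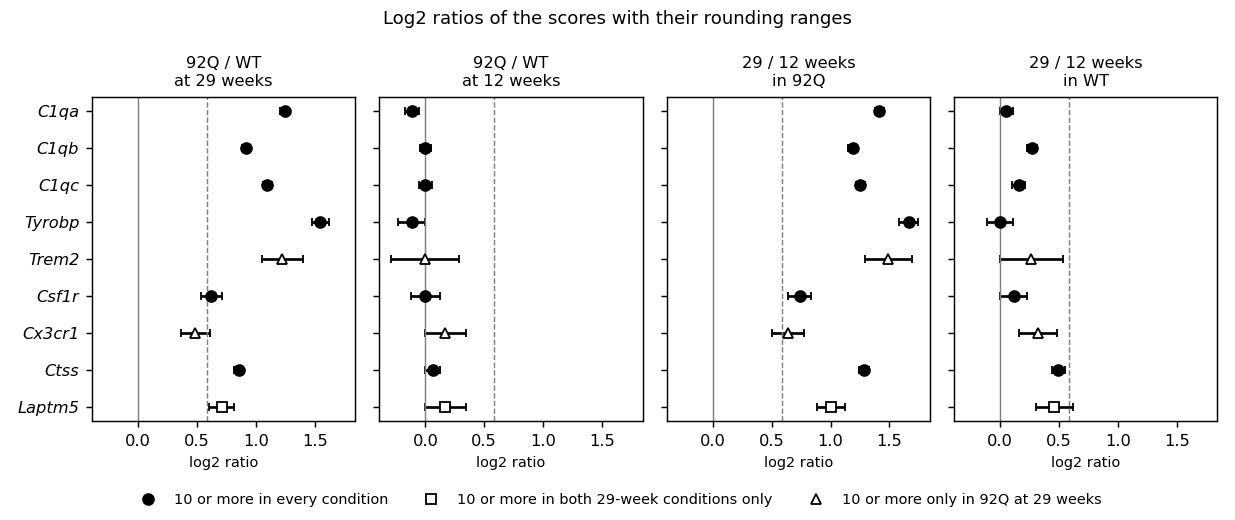
Log2 ratio of scores (x axis) of the 9 genes (rows) for 92Q over wild type at 29 weeks and at 12 weeks, and for 29 over 12 weeks in 92Q and in wild type. Bars are rounding ranges, the solid line is 0 and the dashed line 1.5-fold. Filled circles are genes at 10 or more in every condition, and open symbols those that were not. Tyrobp lies at 1.55 and Csf1r at 0.62 in the first panel.

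The genes most like the group were sought over the 4 conditions by the Euclidean distance between log2(score + 1) centred on each gene's mean and the mean centred pattern of the 6 genes. The nearest non-member was Fcer1g (distance 0.11), a signalling subunit of Fc receptors that, like TYROBP, serves as an adaptor. It scored 32 in 92Q and 15 in wild type at 29 weeks, and 14 in 92Q and 13 in wild type at 12 weeks. Next came Gfap (0.18), the intermediate filament of astrocytes, which scored 235 in 92Q and 95 in wild type at 29 weeks, and 87 in 92Q and 88 in wild type at 12 weeks. Spp1 (0.20), a secreted phosphoprotein, scored 64 in 92Q and 27 in wild type at 29 weeks.

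Also near were Igfbp2 (0.29), Ctsd (0.40), Igf2 (0.47), Ctsz (0.50), Sncg (0.51) and Ifi27 (0.51). Among the 6 genes themselves the distance to their mean ran from 0.04 for C1qc to 0.42 for Csf1r, and the median distance of all non-members was 1.03. At 12 weeks several of these were not level between the genotypes. Igfbp2 scored 17 in 92Q and 23 in wild type, Igf2 44 and 51, and Ctsd 171 and 182 in the same order, while Sncg scored 13 in 92Q and 10 in wild type.

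The authors' deposited table of 99 genes lists 6 of the 9 genes, C1qb, Trem2, Csf1r, Cx3cr1, Ctss and Laptm5, with the same scores as the table of all genes. C1qa, C1qc and Tyrobp, which had higher ratios than C1qb, are not among the 99 in the authors' deposited table. Of all 7667 genes 1.29% stand in that table, of the 7066 at 10 or more in every condition 0.92%, and of the 16 at least 1.5-fold higher in 92Q at 29 weeks 43.8%. How the authors chose these genes from the same samples is unknown, and their table is therefore no independent evidence.

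None of the other measured complement genes reached 1.5-fold at 29 weeks. Of the 7066 genes at 10 or more in every condition only 0.226% were that much higher. Of the list of complement components and regulators 5 of 33 genes had a row, all at 10 or more in every condition. Their median log2 ratio was 0.20 at 29 weeks. Clu, clusterin, an inhibitor of the terminal complex, scored 572 in 92Q and 468 in wild type at 29 weeks (0.29). Serping1, the inhibitor of the C1 proteases that C1q activates, scored 20 in 92Q and 17 in wild type (0.22). Vtn, vitronectin, scored 54 and 47 in the same order, while Cfp, properdin, scored 17 in 92Q and 20 in wild type (-0.22) and Susd4 44 and 46. C3 and C4b were not analysed here.

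Receptors and clearance partners linked to C1q were near level. At 29 weeks 6 of 9 such genes at 10 or more in every condition had a higher score in 92Q, 2 a lower one and 1 the same. Their median was 0.03, and none was at 1.5-fold. Among the 7066 genes at 10 or more in every condition 48.8% were higher and 0.226% at least 1.5-fold higher. Axl, a phagocytic receptor kinase, scored 20 in 92Q and 17 in wild type, and its ligand gene Gas6 48 and 41 in the same order. Calr, calreticulin, scored 147 in 92Q and 153 in wild type, and Megf10, an astrocyte engulfment receptor, 14 and 13. Among genes that share the C1q domain but belong to synapses or secreted factors, Cbln1 and Cbln3 of granule neurons scored 373 and 361 in 92Q against 414 and 401 in wild type at 29 weeks. The median of that list was -0.07 over 4 genes, with none at 1.5-fold.

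The measured ligands and signalling partners of the receptors were likewise close to level at 29 weeks, but most of those named had no row. Of the list of CSF1R and CX3CR1 ligands and adaptors 4 of 10 genes had one. Cx3cl1, the neuronal ligand of CX3CR1, scored 63 in 92Q and 60 in wild type at 29 weeks (0.07), and 50 in 92Q and 52 in wild type at 12 weeks. Csf1, a ligand of CSF1R, scored 13 in 92Q and 11 in wild type at 29 weeks, and 10 and 8 in the same order at 12 weeks. Of the TREM2 and TYROBP signalling list 2 of 22 genes had a row. These were the sheddase Adam10 at 29 in 92Q and 30 in wild type and the kinase Fyn at 48 and 47. Of the myeloid transcription factor list 6 of 17 genes had a row. All had ratios between -0.07 and 0.12, among them Maf at 21 in 92Q and 20 in wild type. Several of these, such as Mef2a and Fyn, are also expressed by neurons.

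Of all 7066 genes at 10 or more in every condition 3447, or 48.8%, had a higher score in 92Q than in wild type at 29 weeks and 1881 a lower one, with 0.226% at least 1.5-fold higher. These shares are the background for the lists of cathepsins and of microglial genes. At 29 weeks all 10 measured genes of the cathepsin list, which leaves out Ctss, had higher scores in 92Q, 2 of them by 1.5-fold and 8 by less, and their median was 0.27. At 12 weeks 1 was higher, 6 were lower and 3 were level (median -0.03), where 2289 of the 7066 genes were higher and 2639 lower. Ctsd, cathepsin D, scored 298 in 92Q and 180 in wild type at 29 weeks (0.72), and Ctsz, cathepsin Z, scored 41 and 25 in the same order (0.69). The inhibitor gene Cst3, cystatin C, scored 950 in 92Q and 794 in wild type (0.26). In contrast to Laptm5, its relatives Laptm4a and Laptm4b scored 106 and 42 in 92Q against 100 and 40 in wild type, and the 9 endolysosomal membrane genes at 10 or more in every condition had a median of 0.11 with none at 1.5-fold. Cd68, a lysosomal glycoprotein of macrophages, scored 20 in 92Q and 6 in wild type at 29 weeks with its direction fixed by the row filter.

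Of the list of homeostatic microglia genes 8 had a row. The 4 at 10 or more in every condition were all higher in 92Q at 29 weeks (median 0.46), and 2 of them were at 1.5-fold, Fcer1g among them. Over all 7066 genes at 10 or more in every condition 48.8% were higher in 92Q at 29 weeks and 0.226% at least 1.5-fold higher. Rgs10 and Gpr56 had ratios of 0.18 each. Olfml3, a secreted protein gene of microglia, scored 15 in 92Q and 10 in wild type at 29 weeks (0.54). It scored 9 in 92Q at 12 weeks and is not among the 4. Selplg, Fcgr3 and Ly86 reached 10 only in 92Q at 29 weeks, which fixed their direction there. P2ry12 and Tmem119, which define homeostatic microglia, were not analysed here. Of the list of disease-associated microglia genes 15 were at 10 or more in every condition, of which 13 had a higher score in 92Q at 29 weeks, 1 a lower one and 1 the same (median 0.26), with 3 at 1.5-fold. These were Spp1, Ctsd and Ctsz. The lipid carrier gene Apoe scored 1552 in 92Q and 1062 in wild type (0.55), and the tetraspanin gene Cd9 scored 35 and 24 in the same order (0.53). At 12 weeks 3 of the 15 were higher and 9 lower (median -0.03), where 2289 of the 7066 genes were higher and 2639 lower. Ctsb, Ctsd, Ctsl and Ctsz stand on both this and the cathepsin list, and astrocytes also express Apoe and Cst3.

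**Figure D4:**
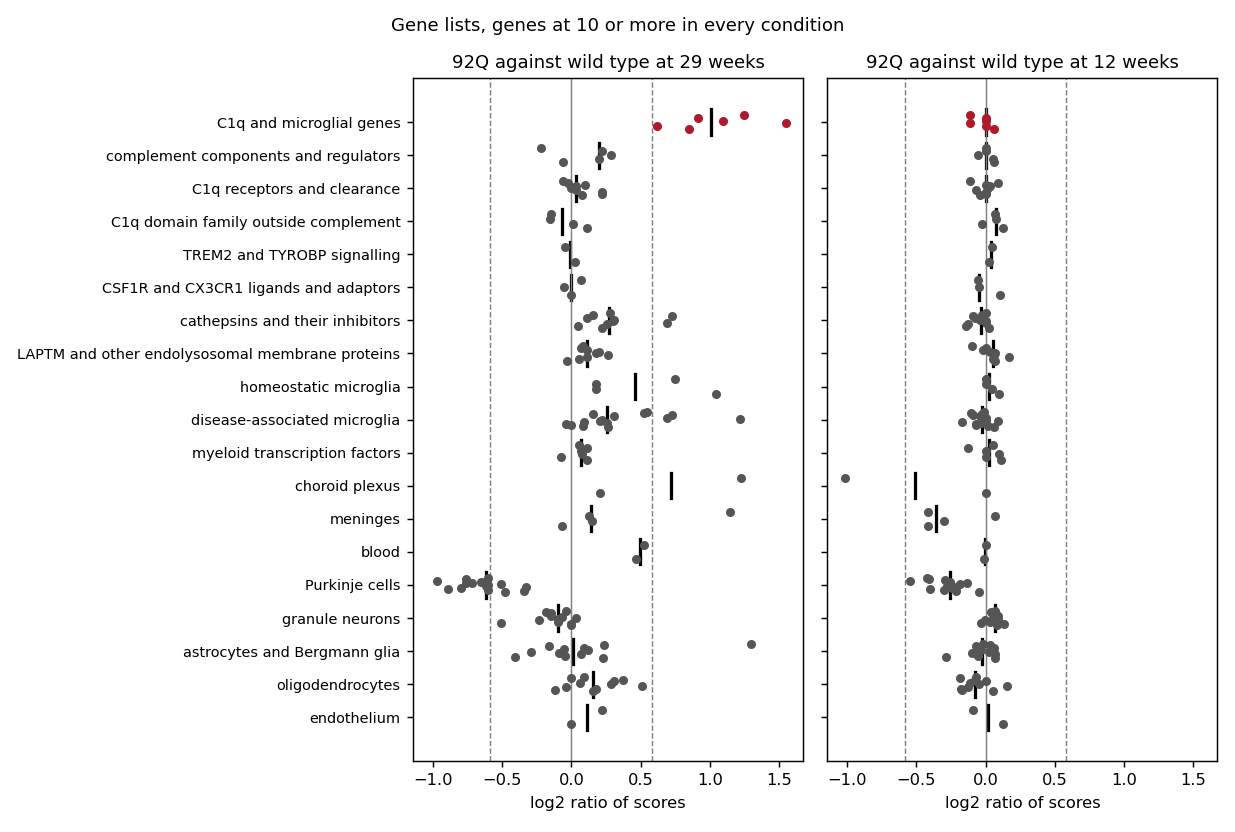
Log2 ratio of scores, 92Q over wild type (x axis), at 29 weeks (left) and 12 weeks (right) for genes at 10 or more in every condition, by gene list (rows). Points are genes, black bars list medians, and dashed lines 1.5-fold in either direction. The C1q and microglial genes (red, median 1.01) lie to the right of most lists at 29 weeks and at 0 at 12 weeks.

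Markers of other cell types moved in the same comparisons. Of the list of border macrophages, which line vessels and choroid plexus, 1 of 13 genes had a row: Cd74, the invariant chain of antigen presentation, scored 15 in 92Q and 6 in wild type at 29 weeks, its direction fixed by the row filter. Mrc1, Cd163 and the rest of that list had no row and were not analysed here. The same held for all 14 monocyte and neutrophil genes and all 14 lymphocyte genes. These lists do not hold every gene that such cells express. Of the disease-associated microglia list, Lyz2 scored 22 in 92Q and 3 in wild type at 29 weeks, and Cd52 25 and 7. The row filter fixed the direction of both. The part of border macrophages, monocytes, neutrophils and lymphocytes in the 29-week values was not tested. The 3 globin rows summed to 179 in 92Q and 126 in wild type at 29 weeks, and 133 and 132 in the same order at 12 weeks.

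Choroid plexus markers were high in 92Q at 29 weeks and low in 92Q at 12 weeks. Ttr, transthyretin, scored 1403 in 92Q and 445 in wild type at 29 weeks, and 6 in 92Q and 336 in wild type at 12 weeks. The summed score of the 8 measured choroid plexus genes was 1729 in 92Q and 586 in wild type at 29 weeks, and 68 and 464 in the same order at 12 weeks. Of these 8 genes 5 reached 10 only in 92Q at 29 weeks, which fixed their direction there. The 2 at 10 or more in every condition were Enpp2, at 238 in 92Q and 101 in wild type at 29 weeks, and Otx2, at 14 and 12 in the same order. The summed score of the 6 C1q and microglial genes at 10 or more in every condition was 300 in 92Q and 142 in wild type at 29 weeks, and 120 and 122 in the same order at 12 weeks. The part of choroid plexus tissue in these values was not tested.

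Sex-linked transcripts also differed between the genotypes. Xist, the X-inactivation transcript, scored 25 in 92Q and 63 in wild type at 29 weeks, and 30 and 66 in the same order at 12 weeks. The Y-linked Eif2s3y scored 15 in 92Q and 6 in wild type at 29 weeks, and 12 in 92Q at 12 weeks, where it is listed at 0 in wild type. Ddx3y, also Y-linked, scored 11 in 92Q and 5 in wild type at 29 weeks, its direction fixed by the row filter, and 9 in 92Q at 12 weeks, where it too is listed at 0 in wild type. At each age genotype and sex makeup cannot be told apart. In wild type Eif2s3y scored 6 and Ddx3y 5 at 29 weeks, and both are listed at 0 at 12 weeks. Age and sex makeup cannot be told apart there either.

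Purkinje cell genes were lower in 92Q at both ages. At 29 weeks all 16 of these genes at 10 or more in every condition had lower scores in 92Q, 12 of them by at least 1.5-fold (median -0.61, background 0.538%). At 12 weeks, when the 6 microglial genes had a median of 0.00, the same 16 Purkinje cell genes were all lower with a median of -0.26 and none at 1.5-fold (background 0.0566%). Gng13, a G protein gamma subunit of these neurons, scored 386 in 92Q and 759 in wild type at 29 weeks, and 641 and 935 in the same order at 12 weeks. The other glial lists were mixed: oligodendrocyte genes had a median of 0.16 over 11 and astrocyte and Bergmann glia genes one of 0.01 over 12 at 29 weeks, with Gfap the 1 gene of these at 1.5-fold. Granule neuron genes had a median of -0.10, the 4 measured meningeal genes at 10 or more in every condition one of 0.14, with Igfbp2 at 1.5-fold, and the endothelial genes one of 0.11. The part of these cell types in the C1q and microglial values was not tested.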

How the data were processed

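Total RNA of mouse cerebellum was extracted with TRIzol, cleaned up with RNeasy and sequenced from TruSeq libraries as single-end reads of 50 bases, per the labels' protocols. Bowtie 0.12.7, SAMtools 0.1.12a, Cuffdiff 1.3.0 and the build mm10 are named in the submitters' processing notes, without role or order. Each deposited value is a score without a stated unit, a whole number that stands for the 3 libraries of a condition. Equal medians and close column sums (322446 to 333581) were read as values normalized and rounded by the authors, not as counts, so no interval that needs depth was computed.

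Of 7684 rows 17 carried a date-like number in place of a gene name and were left out. Log2 ratios used a pseudocount of 1, which understates the ratios of low genes, and rounding ranges moved each score by 0.5. The ratio step was tested on simulated data. The members, the 22 other gene lists (151 measured genes) and the motifs were chosen with earlier results of these data known. Genes named are the 9 members, up to 6 per list with large 29-week ratios, the 10 nearest patterns and the neighbours of the C1q genes; further list genes were chosen after their values were seen, and 1 gene that the rule names is not reported here. Alternatives were pseudocounts of 0.1 and 5, 3 scalings, and other sets of members. Python 3.11.15, numpy 2.4.6, pandas 2.3.3 and matplotlib 3.10.9 were used.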

Additional observations from a re-analysis of the deposited data

Results flagged for a closer look

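The genotype ratio had opposite signs at the 2 ages, each beyond rounding, in 1 of the 6 genes at 10 or more in every condition and in 3 of the 10 genes with the nearest pattern. Of all 7066 genes at 10 or more in every condition 532, or 7.53%, were likewise lower in 92Q at 12 weeks and higher at 29 weeks. With 1 value per condition the difference between ages was not tested. C1qa was 1.25 at 29 weeks and -0.12 at 12 weeks, a difference of 1.36 on the log2 scale. Igfbp2 had a difference of 1.56, Igf2 one of 0.85 and Ctsd one of 0.81.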

How the results depend on the processing

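No alternative reversed the direction of a ratio past 1.5-fold. Upper quartile scaling, median-of-ratios scaling, quantile normalization, a pseudocount of 0.1 and restriction to the 4 genes at 20 or more in every condition left each median within its rounding range and each count within 1.5 times. With a pseudocount of 5 the median over the 6 genes was 0.92 for 92Q against wild type at 29 weeks and 1.14 for 29 against 12 weeks in 92Q. With no filter, over all 9 genes, the medians were 0.92 for the genotype at 29 weeks, 0.92 for its difference between ages and 0.26 for age in wild type. The genes this adds, Trem2, Cx3cr1 and Laptm5, are listed only through their 29-week scores, so these medians are no independent check. Over the 7 genes at 10 or more in both conditions compared, a set chosen after seeing the data, the 29-week median was 0.92 and 7 of 7 were at 1.5-fold (background 0.263%). With a pseudocount of 5 the genes past 1.5-fold for the difference between ages were 18 of 7066, against 29 with 1, and those among the 6 genes were 5, against 6. The scalings shifted the median of all genes by at most 0.03. No paired analysis was possible because each condition has a single deposited value, and for the same reason no library could be left out. The depth behind the scores is unknown, and for scores near 10 rounding alone leaves a wide range.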

Other observations

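The 7 genes with the highest 29-week ratios of 92Q to wild type among the 7066 at 10 or more in every condition were Tyrobp, Gfap, C1qa, Enpp2, Spp1, Igfbp2 and C1qc, and none of these 7 stands in the authors' deposited table of 99 genes. Of the next 9 genes, which had ratios of 0.62 to 1.04, 7 stand in the authors' deposited table, among them Fcer1g, C1qb, Ctss, Ctsz, Cd82 and Csf1r. Ctsd and Igf2 do not. Enpp2, which choroid plexus expresses, scored 238 in 92Q and 101 in wild type at 29 weeks, and 45 in 92Q and 92 in wild type at 12 weeks. Cd82, a tetraspanin gene, scored 19 in 92Q and 12 in wild type at 29 weeks, and 13 in each genotype at 12 weeks.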
